A study of Mus musculus with 11 samples.

Results

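miR-223-3p, a microRNA (miRNA) of the myeloid blood lineage, was followed through 4 groups of cardiac macrophages sorted as GFP-positive cells from hearts of Cx3cr1GFP/+ knock-in mice 2 to 3 months old. It was chosen by its name: of the 1247 miRNAs on the Agilent mouse array, 2 are arms of miR-223, the 3p arm (mmu-miR-223-3p in the files) and the 5p arm. The uninjured hearts (day 0, 2 arrays) had no surgery and gave cells labelled Ly6clow/CX3CR1high. The other hearts were frozen locally (cryoinjury, used as a model of myocardial infarction), and gave Ly6chigh/CX3CR1low cells at day 3 (3 arrays) and Ly6clow/CX3CR1high cells at day 7 (3 arrays) and day 30 (3 arrays). Every animal, controls included, carried the GFP allele, which replaces 1 copy of the fractalkine receptor gene. No animal without surgery was taken later than day 0 and no Ly6chigh cells came from another day, so that day, injury and population cannot be told apart in comparisons with day 3. The labels used here do not say whether cells of several animals were pooled.

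As background, miR-223 is transcribed from its own gene on the X chromosome under C/EBP and PU.1 transcription factors of the myeloid lineage. It is abundant in neutrophils, monocytes and platelets and is known to decline as monocytes become macrophages. Its best known target in macrophages is the mRNA of Nlrp3, the sensor of an inflammasome that releases interleukin-1 beta, and in granulocyte precursors it represses Mef2c.

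The sequences below show which product of the hairpin was measured and which bases read its targets. They are RefSeq entries of build GRCm38.p6, matched by name; 1031 of the 1247 array names had a mature entry there. The Mir223 hairpin lies on the plus strand at chrX:96242817-96242926, within the span of the long non-coding RNA gene F630028O10Rik, and the next protein-coding gene towards the higher coordinates is Vsig4, a complement receptor of resident macrophages. In the hairpin the capitals mark the 5p arm (chrX:96242842-96242864) and then the 3p arm (chrX:96242884-96242905), and in the mature miRNAs they mark the seed, bases 2 to 8, which pairs with the site AACUGAC in targets of the 3p arm.
Mir223 hairpin: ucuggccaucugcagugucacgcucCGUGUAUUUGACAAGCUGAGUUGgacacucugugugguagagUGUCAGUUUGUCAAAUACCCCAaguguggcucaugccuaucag
miR-223-3p: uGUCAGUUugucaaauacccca
miR-223-5p: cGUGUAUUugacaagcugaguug
No other mouse miRNA in the table shared the seed of either arm, with 0 matches for each.

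The 3p arm was detected on all 11 arrays, and the 5p arm, the strand usually discarded, on 0 of 11. Signals are the scanner's total signal per miRNA, in scanner units. The 5p arm read 0.962 to 1.61 units, under the lowest signal called detected on the same array (1.36 to 2.39 units over the 11 arrays), and equal to its own error on every array. It therefore has no level and no fold here, and the text below concerns the 3p arm.

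The 3p arm read 1132 and 212 units on the day 0 arrays. At day 3 it read 12580.5, 13711 and 22697 units. At day 7 the readings were 1063, 258 and 829 units, and at day 30 they were 15338.5, 8991 and 10781.5 units. The day 3 and day 30 readings overlapped, and so did those of day 0 and day 7. The scanner's error was 7.75% to 8.43% of the signal on each array. These signals spanned 107-fold, but the arrays themselves differed 41.4-fold in brightness, taken as the 75th percentile of the signals of 126 miRNAs that every array detected. Day 0 arrays had a brightness of 55.7 and 163 units and day 7 arrays one of 114 to 323 units. For day 3 it lay between 805 and 1607 units, and for day 30 between 1453 and 2304 units. In each of the 4 groups the dimmest array was one of slide 2.

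**Figure D1:**
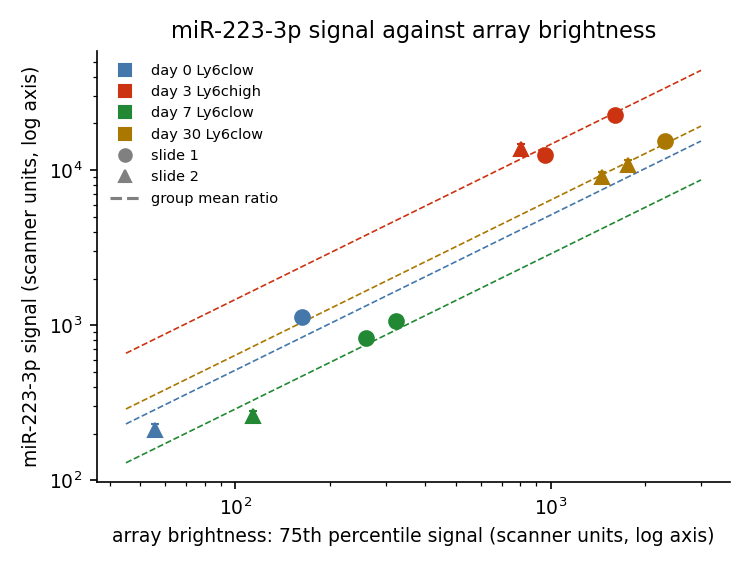
Signal of miR-223-3p (y axis, scanner units, log scale, bars: scanner error) against array brightness (x axis, 75th percentile of 126 miRNAs, log scale) for the 11 arrays, with lines of constant ratio at each group's mean log2 level. Relative to brightness the day 3 arrays lie highest, the raw signals of day 3 and day 30 overlap, and the day 0 and day 7 arrays are all dimmer than the others.

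Each array was therefore divided by its brightness and log2 was taken; all levels below are on this scale. At day 3 miR-223-3p stood at 3.71, 4.09 and 3.82. The day 0 arrays gave 2.79 and 1.93. At day 7 the values were 1.72, 1.19 and 1.68, and at day 30 they were 2.73, 2.63 and 2.62. The last 2 of these (replicates 2 and 3) differed over all miRNAs by less than the scanner's error and were counted as 1 sample, which left 10 samples. Means were 2.36 ± 0.61 (SD, n = 2) at day 0, 3.87 ± 0.20 (SD, n = 3) at day 3, 1.53 ± 0.30 (SD, n = 3) at day 7 and 2.68 ± 0.08 (SD, n = 2) at day 30. Day 3 was thus highest, followed by day 30, day 0 and day 7. Day 3 overlapped with no other group, and the lower day 0 array lay above all 3 day 7 arrays. Day 30 lay inside the range of day 0. Fewer cells that carry the miRNA and less of it per cell cannot be told apart in such bulk samples.

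**Figure D2:**
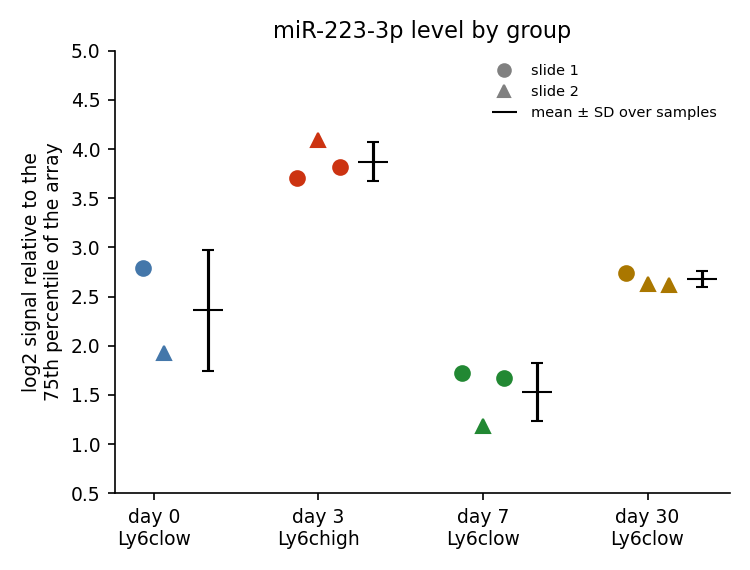
Level of miR-223-3p in each array (y axis, log2 signal relative to the array's 75th percentile) by group, circles for slide 1 and triangles for slide 2, with mean and SD over samples in black. The day 3 arrays, at 3.71 to 4.09, lie above every Ly6clow array, and the day 7 arrays, at 1.19 to 1.72, lie below every other array.

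miR-223-3p was higher in the Ly6chigh cells of day 3 than in the mean of the 3 Ly6clow groups, by 1.68 in log2 or 3.21-fold (SE 0.33, limma adjusted p = 0.00211). Here 15.7% of the 369 tested miRNAs passed as higher, and 10.6% had day 3 samples above all Ly6clow samples, as miR-223-3p did. Among the 126 miRNAs that every array detected, its change was number 8 from the top, and it lay 2.00 above their median change of -0.31. The direction and the call held under all 26 alternatives of the fit (log2 change 1.11 to 3.35). The lowest, 1.11, came with brightness as a covariate, where the call was narrow (limma adjusted p = 0.0447). All day 0 and day 7 arrays were dimmer than all day 3 arrays. Within slide 1 the difference was 1.36 and within slide 2 it was 2.18.

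The steps between days were read one at a time. miR-223-3p rose from day 0 to day 3 by 1.51, or 2.86-fold (SE 0.43, limma adjusted p = 0.0112; 16.3% of tested miRNAs passed as higher and 21.4% did not overlap in that direction). This step rests on the dimmest array, day 0 replicate 2: without it the rise was 0.78 (adjusted p = 0.15), and with brightness as a covariate it was 0.32 (adjusted p = 0.846). Without scaling it was 5.01 (adjusted p = 0.000599). Within slide 1 it was 0.97 and within slide 2 it was 2.16.

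From day 3 to day 7 miR-223-3p fell by 2.35, or 5.08-fold (SE 0.38, limma adjusted p = 0.00124). This was number 2 from the lowest among the 126 that every array detected, whose median change was 0.63. Of the tested miRNAs 16% passed as lower, and 24.4% did not overlap in that direction. The change was -2.07 within slide 1, -2.90 within slide 2 and -1.54 with brightness as a covariate (adjusted p = 0.0555). Without scaling it was -4.69 (adjusted p = 0.000905). All 3 day 7 arrays were dimmer than all 3 day 3 arrays.

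From day 7 to day 30 miR-223-3p rose by 1.15, or 2.22-fold (SE 0.43, limma adjusted p = 0.0418; 13.6% of tested miRNAs passed as higher and 21.7% did not overlap in that direction). All day 30 arrays were brighter than all day 7 arrays, and with brightness as a covariate the change was 0.065 (adjusted p = 0.948), against 4.33 without scaling (adjusted p = 0.00164). The call was also lost when any day 3 array, any day 7 array or day 30 replicate 1 was left out (adjusted p up to 0.223), although the change itself stayed between 0.98 and 1.25.

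Day 3 and day 30 were the 2 groups of bright arrays. Here miR-223-3p was lower at day 30 by 1.19 in log2 (SE 0.43), and all day 30 samples lay below all day 3 samples, which held for 46.6% of the tested miRNAs. The limma adjusted p was 0.0506, just outside the threshold of 0.05, while 21.1% of tested miRNAs passed as lower. With brightness as a covariate the difference was -1.48 (adjusted p = 0.00653), with the slide as a block -1.15 (adjusted p = 0.035) and without scaling -0.36 (adjusted p = 0.742). Day 7 and day 0 were the 2 groups of dim arrays. There the change was -0.83 (SE 0.43, limma adjusted p = 0.18); 0.542% of tested miRNAs passed as lower, and 8.67% did not overlap in that direction, miR-223-3p among them. It was -1.23 with brightness as a covariate (adjusted p = 0.0389), and turned to 0.32 without scaling. Without day 0 replicate 2 it was -1.59 and passed (adjusted p = 0.0336). Day 30 against day 0 gave 0.32 (SE 0.47, limma adjusted p = 0.563), with 8.94% of tested miRNAs passing as higher. The sign turned when day 0 replicate 2 was left out (-0.46), whereas without scaling day 30 was higher by 4.65 (adjusted p = 0.00135). In the main fit none of these differences between neighbours in the order passed at 0.05. Samples of day 3 and day 30 nevertheless did not overlap, nor did those of day 0 and day 7.

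**Figure D3:**
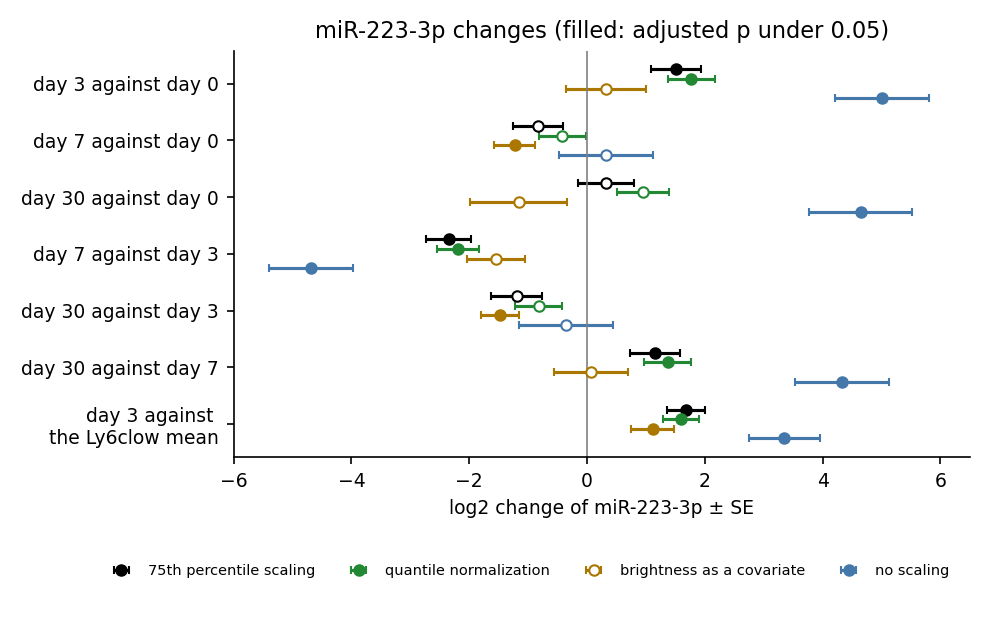
Log2 change of miR-223-3p (x axis, bars: SE) in 7 comparisons under 4 treatments of array brightness; filled points have a limma adjusted p under 0.05. Day 3 against the Ly6clow mean is above 0 and filled under all 4, whereas day 30 against day 7 lies at 0.065 with brightness as a covariate and at 4.33 without scaling.

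Measures that need no scaling were read as well. As a share of the total signal of the 1247 miRNAs, miR-223-3p took 6.08%, 7.74% and 7.86% at day 3. It took 4.32% and 1.15% at day 0, 1.49%, 1.16% and 1.89% at day 7, and 4.22%, 3.83% and 4.05% at day 30. No Ly6clow array reached the lowest day 3 share. The lowest shares were those of day 0 replicate 2 and the day 7 arrays, all of them dim. Day 0 replicate 1, also dim, had 4.32%. The part of array brightness in the shares was not tested. The mean share was 7.22 ± 0.99% (SD, n = 3) at day 3 and 2.59 ± 1.49% (SD, n = 7) in the Ly6clow samples, higher by 4.63 percentage points in a two-sided exact permutation test (p = 0.0167, adjusted p = 0.025 over 3 tests, 120 splits; 0.0167 is the smallest p possible here).

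By signal miR-223-3p was number 3 on each day 3 array and number 4 on each day 30 array. It was number 5 and 15 at day 0 and number 9, 20 and 11 at day 7. The 3 samples of day 3 lay above the 7 Ly6clow samples (mean rank 3 against 9.71, two-sided exact permutation p = 0.0167, adjusted p = 0.025). The wide gaps were those to the dim day 0 and day 7 arrays, and the bright day 30 arrays stood at 4. The part of array brightness in this difference was not tested. Probes differ in how brightly they report, so that a rank is an order of signals and not of molecules. On the day 3 arrays 2 miRNAs read higher, miR-6366 and miR-21a-5p, an injury-responsive miRNA, and on the day 30 arrays miR-3963 joined them. In all, 20 miRNAs read higher on at least 1 array. On the dim arrays these included miR-494-3p, miR-709, miR-3960 and miR-5109_v19.0, besides let-7a-5p, let-7b-5p and let-7c-5p.

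**Figure D4:**
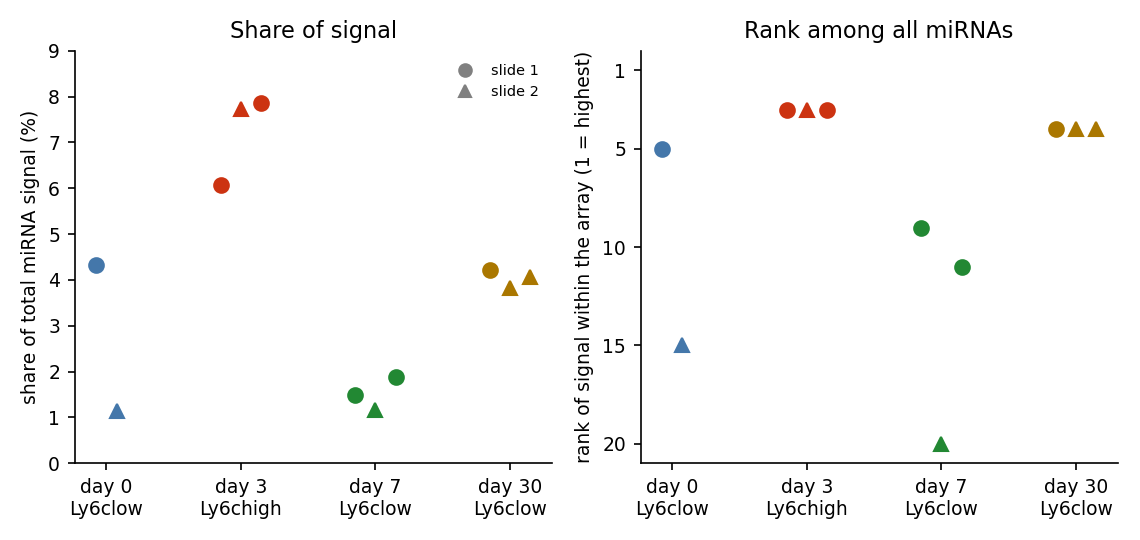
Share of the total miRNA signal taken by miR-223-3p (left, percent) and its rank by signal among 1247 miRNAs (right, 1 is the highest) in each of the 11 arrays, circles for slide 1 and triangles for slide 2. Day 3 arrays hold 6.08% to 7.86% and rank 3, day 30 arrays rank 4, and the dim day 0 and day 7 arrays rank 5 to 20.

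In the authors' deposited table of log2 values, in which arrays share one distribution, miR-223-3p had 13.44 on all 3 day 3 arrays and 12.57 on all 3 day 30 arrays. Values are equal there because they follow the rank within the array, and these ranks were equal. The day 0 arrays had 12.24 and 11.12, and the day 7 arrays 11.74, 10.76 and 11.49. Day 3 was again above all other arrays. With these values in the same limma fit, day 3 against the Ly6clow mean gave 1.58 (adjusted p = 0.00239). The equal values leave no spread of miR-223-3p within day 3 or day 30. That p therefore does not measure the spread between replicates of those groups.

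miR-142a-3p, which is expressed throughout the blood lineages, offers a second leukocyte miRNA on the same arrays. Its level was -2.72 ± 0.91 (SD, n = 2) at day 0, 0.095 ± 0.53 (SD, n = 3) at day 3, -2.64 ± 0.66 (SD, n = 3) at day 7 and 0.91 ± 0.43 (SD, n = 2) at day 30. Its day 30 mean was thus above its day 3 mean, whereas that of miR-223-3p was below it; its own change from day 3 to day 30 did not pass the test. The difference of the 2 log2 signals within an array (miR-223-3p minus miR-142a-3p) does not depend on scaling. It was 4.87 and 5.29 at day 0, 3.69, 4.48 and 3.16 at day 3, 3.70, 4.48 and 4.32 at day 7, and 1.53, 2.03 and 2.01 at day 30. The day 30 arrays lay below all others, and a difference between day 30 and the other days was not tested in this measure. Day 3 (3.78 ± 0.67, SD, n = 3) against all Ly6clow samples (3.75 ± 1.44, SD, n = 7) differed by 0.032 (two-sided exact permutation p = 0.983, adjusted p = 0.983). This mean joins days that differed from day 3 in opposite directions. Both day 0 arrays lay above all day 3 arrays, and all day 30 arrays lay below them. The test therefore does not show that day 3 equals any Ly6clow day in this measure.

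Other miRNAs tied to myeloid development, inflammation or leukocytes were read from a list of 20, of which 19 were on the array and all 19 were tested. In day 3 against the Ly6clow mean, where miR-223-3p was higher, 5 of the 19 were higher and 3 were lower, beside 15.7% and 21.4% of all tested miRNAs. The median change was 0.35 in the list and -0.32 over all 369. In limma those higher were miR-21a-5p (1.97, adjusted p = 0.000569), miR-142a-3p (1.58, adjusted p = 0.0118), miR-20a-5p, of a cluster that drives proliferation (1.21, adjusted p = 0.0126), miR-221-3p (1.17, adjusted p = 0.0238, detected on 1 of 2 day 0 arrays) and miR-222-3p. miR-222-3p was undetected on both day 0 arrays and is given as a bound, at least 6.78-fold higher at day 3 than at day 0 (limma adjusted p = 0.00127). From day 3 to day 7 miR-222-3p and miR-221-3p changed by -0.28 and -0.44, and neither passed (limma adjusted p = 0.62 and 0.388). Those lower in limma were miR-146a-5p, which restrains Toll-like receptor signalling (-4.52, adjusted p = 5.97e-05), miR-125b-5p (-2.68, adjusted p = 0.000148) and the p53-induced miR-34a-5p (-1.43, adjusted p = 0.018; 0.24 without scaling). With brightness as a covariate 5 of the 19 passed; miR-142a-3p (0.15, adjusted p = 0.739), miR-20a-5p (0.84, adjusted p = 0.142), miR-221-3p (0.29, adjusted p = 0.585) and miR-34a-5p (-1.48, adjusted p = 0.12) did not, and without scaling miR-125b-5p did not (-1.01, adjusted p = 0.151).

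From day 3 to day 7, when miR-223-3p fell, 5 of the 19 fell too and 3 rose (16% and 21.1% of all tested miRNAs). The ones that fell were miR-142a-3p (-2.74, limma adjusted p = 0.00201), its other arm miR-142a-5p (detected on 1 of 3 day 7 arrays), miR-20a-5p (-1.87, adjusted p = 0.00365), miR-21a-5p (-1.82, adjusted p = 0.0033) and miR-27a-3p (-1.20, adjusted p = 0.0406). miR-146a-5p, miR-125b-5p and miR-34a-5p rose by 3.63, 2.42 and 1.92 (adjusted p = 0.00124, 0.00124 and 0.00976), the last with the opposite sign without scaling (-0.42). Without scaling miR-146a-5p (1.29) and miR-125b-5p (0.079) did not pass (adjusted p = 0.294 and 0.993). With brightness as a covariate 2 of the 19 passed in this comparison, and miR-142a-3p (-0.73), miR-20a-5p (-1.36), miR-21a-5p (-1.25) and miR-27a-3p (-0.0033) were among those that did not. miR-146a-5p, miR-125b-5p and miR-34a-5p were also the ones that passed as higher at day 30 than at day 3. They rose by 5.33, 2.32 and 2.02 (limma adjusted p = 0.000157, 0.00217 and 0.0164, the last 0.0671 with the highest floor). miR-150-5p and miR-222-3p were lower at day 30 than at day 3, each with a log2 change of -1.99 (limma adjusted p = 0.0289 and 0.0135). Of all tested, 9.76% and 21.1% were higher and lower. With the highest floor miR-150-5p changed by -0.14 and did not pass. Without scaling each of the pair changed by -1.16 and neither passed (limma adjusted p = 0.266 and 0.186).

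From day 7 to day 30 the list had 8 members higher and 3 lower, beside 13.6% and 34.1% of all tested miRNAs. miR-142a-3p rose by 3.55 (limma adjusted p = 0.000482), miR-322-5p by 2.01 (adjusted p = 0.00161), miR-27a-3p by 1.90 (adjusted p = 0.00568), miR-20a-5p by 1.75 (adjusted p = 0.00518) and miR-21a-5p by 1.21 (adjusted p = 0.0262). miR-142a-5p (detected on 1 of 3 day 7 arrays), miR-146a-5p (1.70, adjusted p = 0.0478) and miR-30c-5p (1.21, adjusted p = 0.0438) were the other 3 that were higher. The lower ones in limma were miR-150-5p (-2.69, adjusted p = 0.0033), miR-222-3p (-1.72, adjusted p = 0.0159) and miR-342-3p (-1.19, adjusted p = 0.035), and all 3 had the opposite sign without scaling (0.49, 1.46 and 1.98). With the highest floor miR-150-5p changed by -0.40 and did not pass (limma adjusted p = 0.704). Neither did miR-146a-5p (1.70, adjusted p = 0.123) and miR-30c-5p (1.21, adjusted p = 0.057) with that floor. With brightness as a covariate miR-146a-5p (-0.19) and miR-30c-5p (-0.42) also turned. With brightness as a covariate 0 of the 19 passed in this comparison. Against day 0, the list had 8 higher and 3 lower at day 3 (16.3% and 39% of all tested), 3 higher and 0 lower at day 7 (3.25% and 0.542%), and 5 higher and 0 lower at day 30 (8.94% and 47.4%).

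The miRNAs whose levels ran most like miR-223-3p over the 10 samples were found among the other 125 detected on all arrays by Pearson's r. They were miR-103-3p (r = 0.96), let-7f-5p (0.93), let-7g-5p (0.91), miR-16-5p (0.90), miR-107-3p (0.90) and miR-20a-5p (0.87), whereas the median r over the 125 was -0.43. Points share brightness, slide and scaling, and r is a description without a test. With the values of the authors' deposited table, 5 of these 6 were again among the 6 most alike. Their sequences are shown because several share a seed (capitals) with each other, and none shares the seed of miR-223-3p.
miR-103-3p: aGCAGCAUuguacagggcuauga
miR-107-3p: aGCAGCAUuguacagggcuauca
let-7f-5p: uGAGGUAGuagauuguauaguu
let-7g-5p: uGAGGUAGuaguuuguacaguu
miR-16-5p: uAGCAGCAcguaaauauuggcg
miR-20a-5p: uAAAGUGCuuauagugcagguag
miR-103-3p and miR-107-3p form one seed group, let-7f-5p and let-7g-5p another, and the remaining pair each have a seed of their own among the 6. The seed of miR-16-5p nevertheless overlaps that of miR-103-3p and miR-107-3p at a shifted position.

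The choice of these 6 over the same samples fixes much of their pattern, so that their levels are given as a description with no test. miR-103-3p went from -0.98 ± 0.18 at day 0 to -0.30 ± 0.18 at day 3, -1.15 ± 0.17 at day 7 and -0.63 ± 0.11 at day 30 (SD, n = 2, 3, 3 and 2). let-7f-5p had means of 1.10, 2.47, 1.04 and 1.94 on those days, and miR-16-5p had 0.17, 1.90, 0.089 and 1.21. In all 6 the fall of the mean from day 3 to day 7 was smaller than the one of miR-223-3p.

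The 4 miRNAs that ran most opposite to miR-223-3p, chosen in the same way and likewise not tested, were miR-5128 (r = -0.86), miR-125a-5p (r = -0.84), miR-133a-3p (r = -0.83) and miR-133b-3p (r = -0.83). miR-125a-5p had a mean of -1.67 at day 0, -6.11 at day 3, -2.88 at day 7 and -3.62 at day 30. The muscle miRNA miR-133a-3p had -4.44, -7.25, -5.04 and -6.51 on those days. With the values of the authors' deposited table, r was -0.84, -0.86, -0.77 and -0.75 in the order named, and 0 of these 4 were among the 4 most opposite there.

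**Figure D5:**
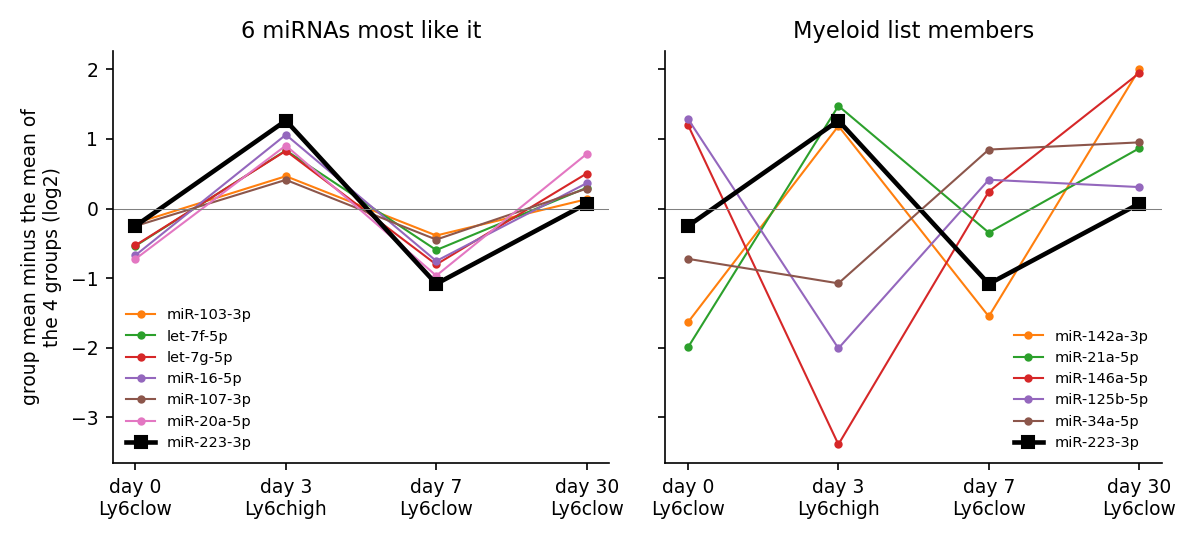
Group means of log2 level minus the mean of the 4 groups (y axis) for miR-223-3p (black) with the 6 miRNAs most like it (left) and with 5 members of the myeloid list (right). On the left all lines peak at day 3 and are lowest at day 7; on the right miR-142a-3p and miR-21a-5p peak at day 3 or day 30, and miR-146a-5p and miR-125b-5p are lowest at day 3.

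Markers of other cells were read beside these values, as shares of the total signal. Each sum includes markers that an array did not detect. The total signal was 18432 to 26168 units on day 0 arrays and 234582 to 363859 units on day 30 arrays. An undetected reading is therefore a larger share on a dim array, so small shares cannot be compared safely between dim and bright arrays. Of 6 cardiomyocyte markers 2 (miR-133a-3p and miR-133b-3p) were detected on all arrays and 3 (miR-208a-3p, miR-208b-3p and miR-499-5p) on 0; their part in the result was not tested. Summed, the 6 held 0.0798% to 0.0854% of the signal on day 0 arrays, and day 3 arrays had the least, 0.0113% to 0.0205%. Day 7 arrays lay between 0.0541% and 0.0636%, and day 30 arrays between 0.0351% and 0.0506%. Of the 2 endothelial markers 1 (miR-126a-3p) was detected on all arrays, with a sum of 0.0461% to 0.201% over the groups. The 5 fibroblast and smooth muscle markers, of which miR-145a-5p was detected on 0 arrays, held 0.0382% to 0.0629% at day 0 and day 3 and 0.104% to 0.22% at day 7 and day 30. The 2 erythroid markers on the array held 0.00633% to 0.032% at day 0, day 3 and day 7 and 0.0513% to 0.0674% at day 30. Of these miR-451a was detected on 7 of 11 arrays and miR-144-3p on 0. The 2 lymphocyte markers, miR-342-3p and miR-150-5p, held 0.555% to 1.27% on day 0 arrays and 0.824% to 0.948% on day 3 arrays. Day 7 arrays lay between 0.904% and 1.80%, and day 30 arrays between 0.636% and 0.841%. Most of this sum was miR-342-3p, with a mean log2 level of 1.37 at day 7 and 0.18 at day 30. miR-150-5p had -4.83 and -7.52 on those days. Both are also members of the myeloid list above, so this sum does not stand for lymphocytes alone. It was lower at day 30 than at day 7, over the step in which miR-223-3p rose. The part of lymphocytes in that step was not tested. The 3 leukocyte markers, miR-223-3p included, held 1.19% to 4.48% at day 0 and 6.59% to 8.82% at day 3. Their sum was 1.21% to 1.98% at day 7 and 4.92% to 5.91% at day 30. Most of it was miR-223-3p itself, which alone held 6.08% to 7.86% at day 3, so this sum is no separate reading. miR-142a-3p was detected on all 11 arrays. Neutrophils and platelets also hold much miR-223, and no marker of theirs apart from it was on these lists; their part in the result was not tested.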

How the data were processed

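RNA of sorted cells was labelled with Cy3 and hybridised to 11 one-colour arrays, per the labels' protocols. The deposited scanner files hold, per the file headers, for each miRNA a total signal (a linear intensity), the error of that signal and whether it was called detected, for 1247 miRNAs and 21 controls. Images were read with Agilent Feature Extraction, per the submitters' processing notes, whose version the sources used here do not give. The authors' deposited table holds log2 values of 317 miRNAs with nearly the same distribution on every array. The files used here hold no saturation flag.

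Each array's signals were divided by the 75th percentile over 126 miRNAs that every array detected, raised to a floor (log2 of -8.53) and logged. The 369 miRNAs detected on at least 2 arrays entered 1 linear model of the 4 groups in limma 3.58.1 under R 4.3.3 (6 residual degrees of freedom), adjusted by Benjamini-Hochberg over all 369 within each of 7 comparisons at 0.05. Day 30 replicates 2 and 3 were averaged: their squared difference was 0.114 times that expected from the scanner's error, against 1.74 to 22.7 for the 9 other replicate pairs. Slides were read from the array layout. Shares, ranks and the difference to miR-142a-3p were compared by exact permutation with scipy 1.17.1. The fit was tested on simulated data with independent noise for each miRNA. Those data held no differences in brightness or slide, so that test does not cover such effects. Named miRNAs are both arms of miR-223, the 6 most and 4 least like it, called members of the myeloid list (the text names fewer for some comparisons) and miRNAs that read above it. The members, lists, tests and alternatives were chosen with earlier results of these data known. The labels' protocols call the replicates independent biological ones; day 30 replicates 2 and 3 may not be, and other p-values measure the spread between samples as labelled. The number of arrays limits precision.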

Additional observations from a re-analysis of the deposited data

How the results depend on the processing

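The alternatives were other scalings, floor, filter, blocks, covariate and weights, the authors' table, 11 separate arrays, 2 groups alone and each replicate left out. Within-slide values and the counts below were added after seeing the data. For miR-223-3p, day 3 against the Ly6clow mean gave 2.80 to 3.35 under the 3 scalings named below and 2.18 within slide 2. With a replicate left out it was 1.46 to 1.88. This comparison kept its call under all 26, the lowest change being 1.11 with brightness as a covariate (limma adjusted p = 0.0447). Day 7 against day 3 kept it under 26 of 27, the exception being brightness as a covariate (-1.54); it was -3.56, -4.69 and -4.15 under those scalings, -2.90 within slide 2 and -2.44 to -2.18 with a replicate left out. Day 3 against day 0 lost its call with the covariate (0.32) and with array quality weights (1.51, adjusted p = 0.066, iteration stopped early); it was 4.05, 5.01 and 4.50 under those scalings, 0.97 and 2.16 within slides and 0.78 to 1.94 with a replicate left out. Day 30 against day 7 lost it with no filter (1.15) and the covariate (0.065); leaving out replicates gave 0.98 to 1.25. Day 30 against day 3 gained a call with the highest floor, only miRNAs detected on all arrays, 2 groups alone or quality weights (-1.19 in each), 11 arrays (-1.21), the slide (-1.15) or the covariate (-1.48), and gave -1.30 to -1.09 with a replicate left out. Day 7 against day 0 turned to 0.49 with the percentile over all miRNAs, 0.32 without scaling and 0.34 with the dmr controls, and passed with the covariate (-1.23); the range with a replicate left out was -1.59 (without day 0 replicate 2, where it passed) to -0.47. Day 30 against day 0 passed at 3.27, 4.65 and 4.24 under those 3 scalings, turned to -1.16 with the covariate and -0.058 within slide 1 (0.70 within slide 2), and ranged from -0.46 to 0.65 with a replicate left out. The cause was not tested.

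With the replicate number as a block on 11 arrays, day 30 against day 3 passed (-1.21, adjusted p = 0.0151) and no other call for miR-223-3p changed. Of 15 same-numbered pairs of samples 10 correlated above 0.1 (-0.26 to 0.59). Replicate numbers largely follow the slides, and day 0 replicate 1 and day 3 replicate 3, on the same slide, correlated at 0.63. The count therefore cannot tell pairing from slide, and the main fit did not pair samples. The share of signal differed by 4.31 to 5.20 and the rank by -7.67 to -5.00 with a replicate left out; without any day 3 replicate p was 0.0556, the smallest that design allows. The difference to miR-142a-3p was -0.34 to 0.34 with a replicate left out and -0.18 within slide 1. miR-34a-5p turned to 0.24 (day 3 against the Ly6clow mean) and -0.42 (day 7 against day 3) without scaling. At day 30 against day 7, with the percentile over all miRNAs, no scaling and the dmr controls, miR-342-3p turned to 0.43, 1.98 and 1.55; without scaling and with the dmr controls miR-150-5p turned to 0.49 and 0.056 and miR-222-3p to 1.46 and 1.03; with the covariate miR-30c-5p turned to -0.42 and miR-146a-5p to -0.19. Called list members ranged over alternatives from 5 to 17 (main count 11) at day 3 against day 0, 0 to 9 (3) at day 7 against day 0, 0 to 19 (5) at day 30 against day 0, 2 to 14 (8) at day 7 against day 3, 1 to 13 (5) at day 30 against day 3, 0 to 17 (11) at day 30 against day 7 and 4 to 16 (8) for the Ly6clow mean. Counts over all miRNAs, 204, 14, 208, 137, 114, 176 and 137 in that order, reached 0 to 1110. Dim arrays at day 0 and day 7 limit every comparison with those days.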

Other observations

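miR-21a-5p, a miRNA induced by injury in many tissues, read lower than miR-223-3p on both day 0 arrays and higher on all 9 arrays after injury. The difference of their log2 signals within an array (miR-223-3p minus miR-21a-5p), which does not depend on scaling, was 1.44 ± 0.30 (SD, n = 2) at day 0, -0.52 ± 0.28 (SD, n = 3) at day 3, -1.04 ± 0.18 (SD, n = 3) at day 7 and -1.10 ± 0.10 (SD, n = 2) at day 30. The day 0 arrays, at 1.22 and 1.65, lay above the day 3 arrays, at -0.80 to -0.24, and these above all later ones. The 2 miRNAs therefore changed unequally between day 0 and the later days; this was not tested. The pair was chosen after the values were seen.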
